A study of Homo sapiens with 4 samples.

Results

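A set of 10 genes that set or mark the epithelial to mesenchymal transition (EMT) was followed in MHCC-LM3, a human liver cancer cell line derived from hepatocellular carcinoma, after exposure to zerumbone. The genes were SNAI1, SNAI2, ZEB1, ZEB2, TWIST1, VIM, ESRP1, ESRP2, GRHL2 and FN1, and a gene entered the comparison through an array row that carries its symbol and no other. That left 9 of the 10 genes, out of 22465 genes measured in all. The row for ZEB2 also carries ZEB2-AS1, so nothing is attributed to ZEB2. Each of the 9 genes had 1 row. The choice of these rows used no difference between the groups, so the differences below were tested. The genes themselves were listed with earlier results of these data known.

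One group of cells received 50 µM zerumbone, a sesquiterpene of ginger plants, and the other received the solvent DMSO, both for 24 h and in the same serum-containing medium. Each group has 2 arrays, 1 per sample, of an Affymetrix whole-transcript expression array. The values are the deposited log2 expression values, and every difference is zerumbone minus DMSO on that scale. The labels do not state whether the 2 samples of a group were separate cultures, so p-values reflect the spread between these samples alone, and that spread may be technical. The array titles number the DMSO arrays before the zerumbone arrays, so an order of processing and the treatment cannot be told apart.

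EMT is the programme by which epithelial cells give up their junctions and take on a migratory form. The zinc finger factors SNAI1, SNAI2, ZEB1 and ZEB2 and the helix-loop-helix factor TWIST1 repress epithelial genes, all but TWIST1 through zinc fingers that bind E-boxes in their promoters. GRHL2 opposes them as a transcription factor that keeps epithelial genes on, and ESRP1 and ESRP2 are splicing factors that maintain the epithelial forms of many transcripts. VIM encodes the intermediate filament vimentin and FN1 the matrix protein fibronectin, both common readouts of the mesenchymal state, although hepatocytes also secrete fibronectin into plasma.

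The sequences that bear on these genes are those of the microRNA-200 family and the promoters of some members. RefSeq promoter windows (GRCh38.p14) were at hand for ZEB1, ZEB2, VIM and FN1 only. In textbook accounts the microRNA-200 family represses ZEB1 and ZEB2 in a double-negative loop. The mature strands are given first because they fall into 2 groups by seed, shown in capitals (bases 2 to 8), which is the part that pairs with a target. The first 3 share the seed AAUACUG and the last 2 share AACACUG.
hsa-miR-200b-3p: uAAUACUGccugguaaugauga
hsa-miR-200c-3p: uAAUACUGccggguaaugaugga
hsa-miR-429: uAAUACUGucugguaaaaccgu
hsa-miR-200a-3p: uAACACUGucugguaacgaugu
hsa-miR-141-3p: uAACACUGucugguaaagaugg

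The array rows for the 5 genes of this family were all at background level in both groups. Background level in a group here means values under the 95th percentile of the 23 antigenomic control rows on each of its 2 arrays. That percentile stood at 4.54 and 5.10 on the DMSO arrays and at 4.74 and 5.03 on the zerumbone arrays. The largest difference among the 5 was that of MIR200C, at 0.47 with a limma adjusted p of 0.160, and none of the 5 passed. Of 9 measured microRNA genes that restrain ZEB or SNAI transcripts, limma called 1 higher (MIR101-1, at background level in both groups) and 0 lower, against 2 and 1 at an unadjusted p under 0.05. These rows read the gene of the precursor, so the amount of mature microRNA was not measured.

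Of the 9 measured members, 2 rose under zerumbone (SNAI1 and SNAI2) and 3 fell (ZEB1, ESRP2 and FN1), by limma with an adjusted p under 0.05. TWIST1, ESRP1, GRHL2 and VIM did not pass and were at background level in both groups. Over all genes tested 36.0% were called, 18.4% higher and 17.7% lower, and among the 10349 genes above background on both arrays of at least 1 group the share called was 67.4%. The 5 calls came from the 5 members above background, so their number is no sign that these genes respond more often than others. The median difference over all genes tested was 0.07.

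SNAI1, the factor that gave the snail family its role in repressing E-cadherin, read 5.30 and 5.62 on the DMSO arrays and 6.38 and 7.16 on the zerumbone arrays. Both zerumbone arrays were higher than both DMSO arrays, yet the zerumbone arrays lay 0.77 apart, about as far as the 0.76 that separated the nearest arrays of the groups. The DMSO mean was 5.46 ± 0.225 (SD, n = 2) and the zerumbone mean 6.77 ± 0.547 (SD, n = 2), which is 2.48-fold higher, with a 95% interval of 1.52 to 4.05 and a limma adjusted p of 0.0184. The call was lost without DMSO replicate 1 (adjusted p 0.113) and without DMSO replicate 2 (0.0649), within a range of 0.00486 to 0.113 over all alternatives. A pseudogene of SNAI1 is annotated, and whether it shares probes with the gene was not tested.

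SNAI2, also called Slug, is the paralog best known from neural crest migration. It read 6.06 and 6.14 under DMSO and 7.15 and 7.03 under zerumbone. The groups did not overlap, and their nearest arrays were 0.89 apart against ranges of 0.09 and 0.12 within groups. The means were 6.10 ± 0.062 (SD, n = 2) and 7.09 ± 0.085 (SD, n = 2), and the rise was 1.99-fold with a 95% interval of 1.74 to 2.28 and a limma adjusted p of 0.000555. The interval of SNAI1 contains that of SNAI2, and whether the rises of the 2 paralogs differ in size was not tested.

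ZEB1, a repressor with zinc fingers at both ends that lies downstream of the snail factors in many accounts of EMT, moved the other way. It read 9.38 and 9.30 under DMSO and 8.64 and 8.63 under zerumbone. The zerumbone arrays were 0.01 apart and both lay at least 0.66 below the DMSO arrays. The DMSO mean was 9.34 ± 0.053 (SD, n = 2) and the zerumbone mean 8.63 ± 0.007 (SD, n = 2), a 1.63-fold fall with a 95% interval of 1.45 to 1.83 and a limma adjusted p of 0.000965.

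The promoter of ZEB1 is shown because it holds E-box letters, and it was picked with the direction of the gene known. Whether snail proteins act on it was not tested. The letters are the 250 bases before the outermost RefSeq start, chr10:31318167-31318416 on the plus strand, with the match to the E-box CAGGTG or CACCTG in capitals.
ZEB1: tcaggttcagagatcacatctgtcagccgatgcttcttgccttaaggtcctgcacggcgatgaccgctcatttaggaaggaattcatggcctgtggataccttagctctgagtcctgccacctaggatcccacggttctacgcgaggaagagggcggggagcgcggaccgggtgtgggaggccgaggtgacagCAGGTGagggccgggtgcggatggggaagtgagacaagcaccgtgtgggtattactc

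Both spellings were searched, which together cover both strands, and this window holds 1 match, beginning at position -57 from the start. RefSeq lists 7 starts for ZEB1, and the window of the third of them holds 2 matches, at -242 and -85, while the other windows hold none. Across all 35116 windows of this length 17.5% hold at least 1 match, and of the 10 windows of members 20.0% do. The windows listed for ZEB2, VIM and FN1 hold none, which says only that these letters are absent from those windows. A match is a run of letters and not a measured binding site.

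TWIST1, a factor of mesoderm formation, read 3.64 and 3.74 under DMSO and 3.74 and 3.73 under zerumbone, under the background percentile on every array. The groups overlapped, and the difference was 0.05 with a 95% interval of -0.13 to 0.22 and a limma adjusted p of 0.637. At this signal the absence of a call does not show that TWIST1 was unchanged, and no fold is given. The row shared by ZEB2 and ZEB2-AS1 read 4.80 and 4.84 under DMSO and 4.65 and 4.68 under zerumbone, above the background percentile on DMSO replicate 1 and under it on the other 3 arrays.

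Among the epithelial regulators only ESRP2 was above background. ESRP2 read 5.52 and 5.49 under DMSO and 5.08 and 5.04 under zerumbone, so both treated arrays were lower. The DMSO mean was 5.51 ± 0.021 (SD, n = 2) and the zerumbone mean 5.06 ± 0.028 (SD, n = 2), a 1.37-fold fall with a 95% interval of 1.22 to 1.53 and a limma adjusted p of 0.00403. The zerumbone values were close to the limit of detection, at 5.04 against a percentile of 5.03 on zerumbone replicate 2. With the 99th percentile or the maximum of the background rows as the limit, ESRP2 was at background level under zerumbone. On zerumbone replicate 2 these limits were 6.59 and 7.02, above both DMSO values of ESRP2. No size or bound of its fall can then be given.

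ESRP1, the paralog of ESRP2, read 3.41 and 3.33 under DMSO and 3.51 and 3.40 under zerumbone, with overlapping groups and a limma adjusted p of 0.400. GRHL2 read 3.50 and 3.49 under DMSO and 3.59 and 3.67 under zerumbone. Its groups did not overlap, which was also so for 69.9% of all genes, but the difference of 0.13 did not pass (limma adjusted p 0.179) and both groups were at background level. The array values are summaries over a whole transcript cluster, so exon choice by the ESRP proteins was not measured.

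Of the mesenchymal effectors, FN1 was well above background and VIM was not. VIM read 4.51 and 4.63 under DMSO and 4.52 and 4.60 under zerumbone, at background level in both groups, although on DMSO replicate 1 it lay just under the percentile of 4.54. Its groups overlapped, with a difference of -0.01, a 95% interval of -0.20 to 0.19 and a limma adjusted p of 0.948. A higher limit, at the 99th percentile or the maximum of the background rows, left the same 4 members at background level in both groups.

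FN1 read 17.85 and 17.83 under DMSO and 17.11 and 17.07 under zerumbone. The arrays within a group were 0.02 and 0.05 apart, and the groups were separated by 0.72. The DMSO mean was 17.84 ± 0.011 (SD, n = 2) and the zerumbone mean 17.09 ± 0.033 (SD, n = 2), a 1.68-fold fall with a 95% interval of 1.51 to 1.88 and a limma adjusted p of 0.000685. All 4 values exceed the 16 bits of a scanner, as do others in the table, which reaches 19.93, so a step beyond the stated processing may have set the scale and the fold is on the scale as deposited.

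The promoter of FN1 is shown because the gene fell and because the cAMP response element in it is a classic feature. The letters are the 250 bases before the RefSeq start, chr2:215436069-215436318, read on the minus strand, with the element TGACGTCA in capitals.
FN1: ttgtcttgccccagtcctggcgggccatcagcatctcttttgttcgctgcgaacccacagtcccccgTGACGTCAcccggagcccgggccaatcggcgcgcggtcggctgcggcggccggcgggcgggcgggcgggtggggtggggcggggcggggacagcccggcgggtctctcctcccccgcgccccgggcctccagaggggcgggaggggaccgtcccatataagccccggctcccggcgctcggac

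The element begins at position -183 from the start. It reads the same on both strands, and 1.65% of all windows of this length hold it. These letters were chosen after the sequences were seen, so that share says nothing particular about FN1, and no binding was measured. The element does not overlap the E-box letters, of which this window has none.

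**Figure D1:**
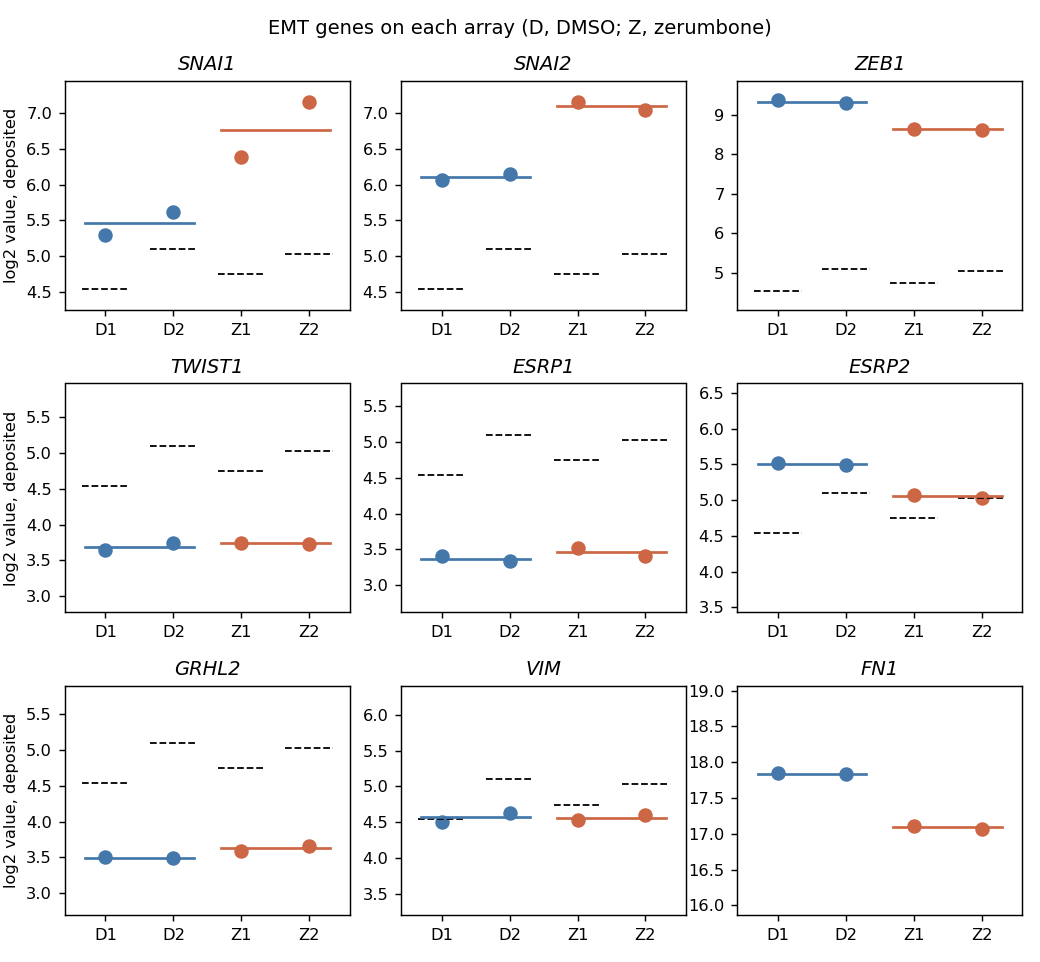
Deposited log2 values of the 9 EMT genes on each array (D1 and D2, DMSO; Z1 and Z2, zerumbone), with group means as solid lines and the background percentile of each array as a dashed line, which lies outside the range drawn for FN1. SNAI1 and SNAI2 were higher and ZEB1, ESRP2 and FN1 lower on both zerumbone arrays, while TWIST1, ESRP1, GRHL2 and VIM lay under the dashed lines on all 4 arrays.

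The plot of the member values by array puts the 5 called genes beside the 4 at background level. The SNAI1 panel is the one with a visible spread between the arrays of a group. In the other 4 called panels the points of a group nearly coincide, and the gap between groups is several times their range.

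**Figure D2:**
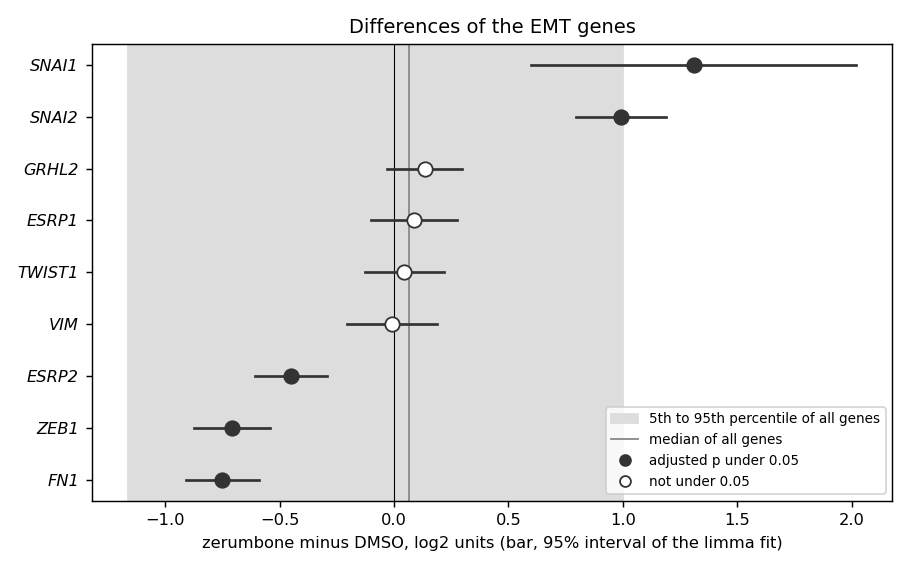
Zerumbone minus DMSO differences in log2 units of the 9 EMT genes with 95% intervals of the limma fit, against the 5th to 95th percentile of all genes (grey, -1.16 to 1.0). SNAI1 lies at 1.31 with the widest interval, SNAI2 at 0.99, and FN1, ZEB1 and ESRP2 at -0.75, -0.71 and -0.45.

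Set against all genes, only the rise of SNAI1 lay outside the 5th to 95th percentile, which ran from -1.16 to 1.0. The falls of ZEB1 and FN1, at -0.71 and -0.75, were of similar size and their 95% intervals overlapped. By role, the snail factors rose and ZEB1, another repressor of epithelial genes, fell, as did FN1 on the mesenchymal side and ESRP2 on the epithelial side.

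The genes nearest to SNAI1 in profile, by the mean absolute difference over the 4 arrays after subtracting each gene's DMSO mean, were ZMYM5 (0.07), RHOQP2 (0.08) and PSAT1P4 (0.11). Nearest to SNAI2 were TINF2 (0.01), EAF2 (0.02) and PGAP1 (0.02). With 4 arrays in 2 groups, such likeness is mainly a like difference between the groups.

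Established markers of the epithelial and mesenchymal state were checked beside the members. The keratins KRT8 and KRT18, typical of hepatocytes and simple epithelia, averaged 15.87 and 15.04 under DMSO and fell under zerumbone, with differences of -1.31 and -0.75. The call of KRT18 was lost without DMSO replicate 1 (adjusted p 0.0621), within a range of 0.00193 to 0.0621 over all alternatives. CDH1, the E-cadherin gene and the classic target of the snail and ZEB factors, read 6.32 and 6.18 under DMSO and 5.67 and 5.88 under zerumbone. It fell by 0.48 (limma adjusted p 0.0190), but 4 of 10 alternatives ended that call, namely the fit of all transcript clusters and the loss of DMSO replicate 1, DMSO replicate 2 or zerumbone replicate 1, with adjusted p-values from 0.00630 to 0.120 over the 10. EPCAM, an epithelial adhesion gene, was at background level in both groups. CDH2, the N-cadherin gene that often replaces CDH1 in EMT, fell from 11.7 to 10.1, a difference of -1.58.

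Hepatocyte markers were mostly undetected, with 15 of 17 measured genes at background level in both groups, AFP among them, and ALB at background level under DMSO and on 1 zerumbone array. APOH, a plasma apolipoprotein and the hepatocyte marker above background in both groups, fell 1.96-fold (limma adjusted p = 0.000372). Of markers of cells that a pure culture should lack, 9 of 11 leukocyte, 9 of 10 endothelial and 8 of 11 fibroblast and stellate cell genes lay at background level throughout, including PTPRC, PECAM1, COL1A1 and PDGFRB. The summed log2 level of the fibroblast list was 44.6 to 44.9 under DMSO and 44.0 to 44.2 under zerumbone, and that of the endothelial list 40.8 on both DMSO arrays and 38.9 to 39.1 under zerumbone. LUM, a matrix proteoglycan, and KDR, a receptor for vascular growth factors, fell (-1.22 and -1.93), and CD68, a lysosomal protein, rose by 0.93. KDR was the only gene of the endothelial list above background, so the sum of that list mainly follows KDR. RGS5, a pericyte marker under the background percentile on 1 DMSO array, was called higher, and that call was lost without DMSO replicate 1 and with the mean of all rows of the gene (adjusted p from 0.00252 to 0.0666 over the alternatives). The summed level of the leukocyte list was 53.0 to 53.4 under DMSO and 54.7 to 54.9 under zerumbone. In a bulk sample fewer cells of a type and less RNA per cell cannot be told apart, and the part of these markers in the members' differences was not tested.

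Of the signals that induce SNAI and ZEB genes, 11 of 24 measured genes fell and 5 rose. The counts of this and the other lists stand beside 18.4% higher and 17.7% lower over all genes tested. Among the 10349 genes above background on both arrays of at least 1 group, 3402 rose and 3574 fell. Of the 19 upstream signals above background 5 rose and 11 fell. TGFB2, a ligand of the TGF-beta family and a strong inducer of both snail genes, fell from 11.67 to 5.64, a 65.7-fold change. On zerumbone replicate 2 it read 5.52, under the 99th percentile of the background rows there (6.59). The size of its fall is therefore uncertain. EGFR, a growth factor receptor (-3.48), SMAD3, a transducer of TGF-beta signals (-2.71), TGFBR2, the type II receptor (-2.16), and JAG1, a Notch ligand (-1.64), also fell. SNAI1 and SNAI2 thus rose while transcripts of these signals moved in both directions. The 5 named signals, those with the largest differences, all fell, and the 5 that rose are not named.

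SNAI and ZEB proteins act with corepressors, of which 16 of 21 fell and 0 rose by limma, against 1 higher and 16 lower at an unadjusted p under 0.05. The list's median difference was -0.61. Of its 20 genes above background 16 fell, beside 3574 of the 10349 such genes in all. CTBP1, the corepressor that ZEB1 binds, fell by 1.08. AJUBA, a bridge from SNAI1 to chromatin enzymes (-1.18), EZH2, a histone methyltransferase (-0.98), SUV39H1, which marks heterochromatin (-1.72), and DNMT1, the maintenance DNA methyltransferase (-3.22), fell too. The snail proteins are also short-lived, and of 19 measured genes that set their stability 8 rose and 8 fell. Of the 18 above background 8 rose and 7 fell, beside 3402 and 3574 of 10349 in all. LATS2, a kinase that stabilises SNAI1 in the nucleus, rose by 1.32 and USP27X, a deubiquitinase of SNAI1, by 1.18. MDM2 and FBXO11, a pair of ubiquitin ligase components, rose by 1.25 and 0.81, and CTDSPL, a small phosphatase, fell by 0.91. No protein was measured here.

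Other EMT transcription factors moved in both directions. Of 16 measured, 2 rose, 4 fell and 10 were at background level in both groups, SNAI3 and TWIST2 among them. FOXQ1, a forkhead factor, fell 16.6-fold from 9.73 to 5.68. On zerumbone replicate 2 it read 5.83, under the 99th percentile of the background rows there (6.59), so the size of its fall is uncertain. HMGA2, a chromatin protein that induces SNAI1, and TCF3, which encodes the E2A proteins, fell as well (-1.07 and -0.77). ETS1 and FOSL1, the latter a subunit of AP-1, rose by 1.92 and 1.39.

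On the side of GRHL2 and the ESRP genes, 6 of 13 measured epithelial regulators fell and 2 rose. Of the 7 above background 6 fell and 1 rose, beside 3574 and 3402 of 10349 in all. EHF, an ETS factor of epithelia, went from above background to background level and fell at least 10.1-fold, with the background percentile in place of its zerumbone values. ELF3, a related ETS factor (-1.65), FOXA1, a pioneer factor of liver (-1.07), RBM47, an RNA-binding protein that restrains EMT (-1.03), and KLF5 (-0.82) fell. Of 15 other splicing factors with known EMT exons 9 fell and 2 rose. Of the 13 above background 9 fell and 2 rose, beside 3574 and 3402 of 10349 in all. The list was led by MBNL1 (-3.30), SRSF1 (-2.10) and HNRNPF (-1.34). QKI, a factor raised in mesenchymal cells, was at -0.73 and RBM24 at 0.89. Of 12 measured genes whose exons the ESRP proteins regulate, 4 rose and 3 fell at the level of the whole gene, with UAP1 (1.71), NUMB (0.73), EXOC7 (0.44), TCF7L2 (-1.63) and ARHGEF11 (-0.55) named by size.

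Of 37 other mesenchymal and invasion genes 16 fell, 3 rose and 14 were at background level in both groups. Of the 20 above background 15 fell and 3 rose, beside 3574 and 3402 of 10349 in all. THBS1, a matrix glycoprotein, fell 19.6-fold, WNT5A, a ligand of noncanonical Wnt signalling, 10.3-fold, FBN1, the fibrillin gene, 5.67-fold and S100A4, a calcium-binding marker of motile cells, 4.92-fold. LOXL1, a crosslinker of elastin, fell 3.76-fold. NES and PLEC, a partner filament of vimentin and a linker protein of the filaments, fell (-2.25 and -1.44), within a list of 15 where 4 fell and 2 rose. Among 20 genes for fibronectin receptors and matrix assembly, 7 rose and 4 fell. Of the 13 above background 6 rose and 4 fell, beside 3402 and 3574 of 10349 in all. ITGA5, the alpha chain of the main fibronectin receptor, rose by 1.63, SDC4, its coreceptor, by 1.55 and FERMT2, an integrin activator, by 1.25, while TGM2, which crosslinks fibronectin, and LTBP1, which stores latent TGF-beta in the matrix, fell (-1.96 and -2.14). The transcript of FN1 and that of its receptor chain ITGA5 thus moved in opposite directions.

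Epithelial junction and keratin genes, some of them targets of the repressors in textbook accounts, were likewise split. Of 34 measured, 9 were lower, 6 higher and 11 at background level in both groups. Of the 19 above background 9 fell and 6 rose, beside 3574 and 3402 of 10349 in all. DSC2, a desmosomal cadherin, rose 3.95-fold and OCLN, the tight junction protein occludin, 2.44-fold, while PKP2, a desmosomal plaque protein, fell 3.82-fold and KRT19 3.16-fold. RefSeq promoter windows were at hand for 21 of these genes, and CDH1 was not among them. Of their 32 windows 15 (46.9%) hold the E-box letters, against 17.5% of all windows. Windows of one gene can overlap, so they are not independent. Of the 14 genes with a match 4 rose and 2 fell, and of the 7 without one 2 rose and 1 fell.

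**Figure D3:**
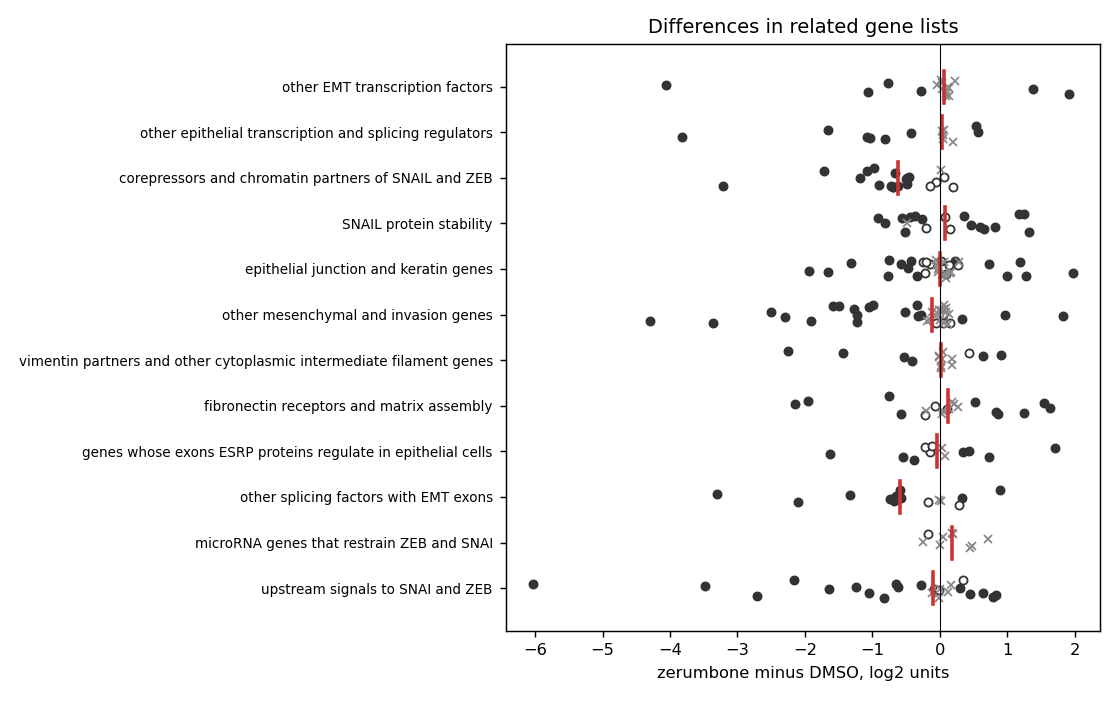
Zerumbone minus DMSO differences in log2 units of all measured genes of 12 related lists (filled, adjusted p under 0.05; open, not; crosses, at background level in both groups whatever the test found), with each list's median in red. The corepressor and splicing factor lists have medians of -0.61 and -0.59, and the other lists have medians between -0.11 and 0.18.

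In the plot of the related lists, the medians include the genes at background level, which many of the lists hold. Over genes above background alone, the medians were -1.13 for mesenchymal and invasion genes, -1.03 for epithelial regulators and -0.62 for upstream signals. Those of corepressors, splicing factors and other EMT factors were -0.64, -0.65 and -0.52. The stability and fibronectin lists had 0.12 and 0.10, and all genes above background had 0.0074. The corepressor list was mostly above background, with 1 of its 21 genes at background level throughout.

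**Figure D4:**
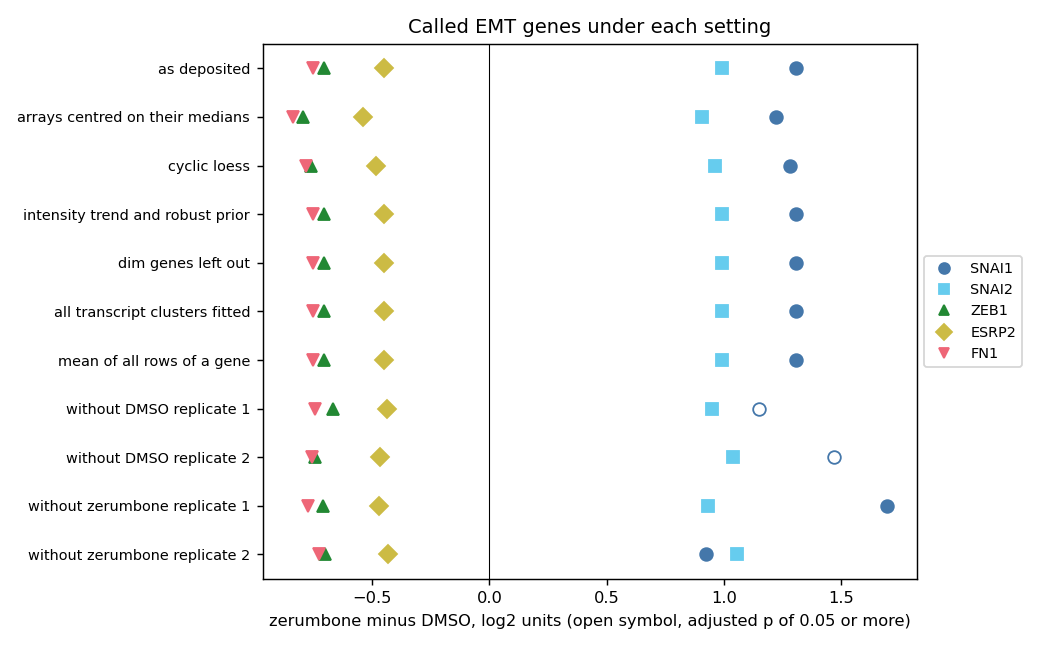
Differences in log2 units of the 5 called EMT genes under each setting of the processing and with each array left out (open symbols, adjusted p of 0.05 or more). The symbols of SNAI2, ZEB1, ESRP2 and FN1 stay filled throughout, and SNAI1 is open without either DMSO array.

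Across the settings in that plot, SNAI1 ranged from 0.92 to 1.70 with an array left out. SNAI2 ranged from 0.93 to 1.05, ZEB1 from -0.74 to -0.67, ESRP2 from -0.47 to -0.43 and FN1 from -0.77 to -0.73.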

How the data were processed

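The 4 arrays share 1 table, deposited by the authors on the log2 scale. The submitters' processing notes name RMA and the Affymetrix Expression Console, with no version. RMA subtracts background, equalises the arrays' distributions and summarises probes on the log2 scale. The genome build of the probes is not given in the sources used here, so no coordinates of array rows are printed. Those of the promoter windows are RefSeq's, on GRCh38.p14. The number of arrays limits the precision.

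The table has 70523 rows, of which 2995 are control or probe-region rows and did not enter the tests. Of the 67528 transcript clusters 23781 carry 1 gene symbol, 1543 several and 42204 none. Where a gene had several rows (479 genes), the brightest by mean was kept, leaving 22465 genes. Differences were tested, two-sided, with lmFit and eBayes in limma 3.58.1 (R 4.3.3), with Benjamini-Hochberg adjustment over all 22465 genes, 2 residual and 2.88 prior degrees of freedom and a threshold of 0.05. An exact permutation test of 2 against 2 arrays cannot go below p = 0.333. The fit was tested on simulated data.

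Named were all members, up to 5 called genes above background with the largest difference in each of 12 related lists and each list of cell type markers, and CDH1, EPCAM, CDH2, TGFB2 and the microRNA-200 genes, and the 3 genes nearest in profile to each of the 2 members with the largest difference. KRT18, MIR101-1 and the genes named only as being at background level fall outside this rule, as do the TGACGTCA letters, which were chosen after the sequences were seen. The lists hold 253 genes, of which 234 were measured. Members and lists were chosen with earlier results of these data known. List counts carry no test of the list. Figures were drawn with matplotlib 3.10.9.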

Additional observations from a re-analysis of the deposited data

How the results depend on the processing

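No paired analysis was possible because the labels give the arrays no replicate numbers shared between the groups. SNAI2, ZEB1, ESRP2 and FN1 kept their direction and their call under all 6 alternatives of normalization, prior, filter, features and row choice and without each of the 4 arrays in turn. SNAI1 kept its call under those 6 alternatives and lost it without DMSO replicate 1 or 2, with differences from 0.92 to 1.70 over the arrays left out. The number of members higher was then 1 to 2, and the cause was not tested. TWIST1, which was not called, changed sign with arrays centred on their medians (-0.0429) and with cyclic loess (-0.0440), and ranged from -0.0033 to 0.0950 with an array left out. VIM, also not called, ranged from -0.072 to 0.0562. Both genes were at background level.

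Over all genes, 51.0% of calls were higher as deposited, 41.0% after centring on the medians and 44.4% after cyclic loess. The number of genes higher was 4125, and 2557 to 3822 with an array left out, lowest without DMSO replicate 1 and 2687 without DMSO replicate 2. With all transcript clusters fitted it was 2868 among the same genes. Splicing factors that were higher numbered 2, and 1 after centring, cyclic loess or the fit of all clusters, and 1 to 2 with an array left out. MicroRNA genes that were higher numbered 1 (MIR101-1), and 0 with dim genes left out or all clusters fitted, and 0 to 2 with an array left out. Those lower numbered 0, and 2 after centring and 1 after cyclic loess. With dim genes left out, 1 corepressor was higher, against 0, in a fit with another prior and fewer genes, whose parts were not tested. Other epithelial regulators that were higher then numbered 1, against 2, since GRHL1 was itself left out as dim. Upstream signals that were higher numbered 3 to 6 with an array left out. With the 99th percentile or the maximum of the background rows, 1 member, ESRP2, was at background level in 1 group, against 0 at the 95th percentile. At the maximum SNAI1 was also under the limit on 1 DMSO array. On zerumbone replicate 2 the maximum was 7.02, and SNAI2 at 7.03 and SNAI1 at 7.16 lay close above it. Whether a fold was given for the other genes was set by the 95th percentile. For members at background level, the absence of a call does not show that the transcript was unchanged.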
